A study of Mus musculus with 12 samples.

Results

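Frizzled receptors, encoded by Fzd1 to Fzd10, were measured in C57MG cells with every probe that the array carries for them. The members were the spots named Fzd1 to Fzd10 that are not control spots, which gave 16 probes of 10 genes among the 41174 probes of the array. Fzd2, Fzd3, Fzd5, Fzd7, Fzd8 and Fzd10 had 2 probes each and the other genes had 1. Where a gene had 2 probes, probe 1 is the one with the higher mean signal over the 12 arrays; for Fzd10 that order rests on 1 array. The files place Fzd5 and Fzd7 on chromosome 1, Fzd1, Fzd9 and Fzd10 on chromosome 5, Fzd4 on 7, Fzd2 on 11, Fzd3 on 14, Fzd6 on 15 and Fzd8 on 18. Of the 16 probes, 9 probes of 7 genes were well above background and could be tested.

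Frizzleds are receptors that cross the membrane in multiple passes and bind Wnt proteins through an extracellular cysteine-rich domain. With the co-receptors Lrp5 and Lrp6 they pass the Wnt signal to Dishevelled and stabilize β-catenin, and with other partners they orient cells in the plane of a tissue. The membrane ubiquitin ligases Znrf3 and Rnf43 remove Frizzleds from the cell surface, and R-spondins, bound to Lgr receptors, act against those ligases. By sequence the receptors fall into 4 groups of close relatives: Fzd1, Fzd2 and Fzd7; Fzd5 and Fzd8; Fzd4, Fzd9 and Fzd10; and Fzd3 and Fzd6. An array measures mRNA and not the receptor at the surface.

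C57MG cells are an established line from mouse mammary epithelium that has long been used to assay Wnt activity. Cells of all 4 groups spent 24 h in plain DMEM. The control group received BSA, which carried the proteins, and the others received human Rspo2, mouse Wnt3a or both, as recombinant proteins at 100 ng/ml each. Each group had 3 monolayers, labeled as biological replicates, each with an array of its own. The question was how Rspo2 and Wnt3a, alone and together, change gene expression. All groups come from 1 cell line, so the p-values measure the spread between monolayers of that line, together with that between their arrays.

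The 12 arrays had a 75th percentile between 773.9 and 1146 scanner units, and 51.28% to 64.17% of their probes were well above background. The 12 arrays lie on 3 slides, of which slide 1 holds the BSA arrays and Rspo2 replicate 1, slide 2 holds Rspo2 replicates 2 and 3 and Wnt3a replicates 1 and 2, and slide 3 holds Wnt3a replicate 3 and the arrays with both proteins. No slide therefore holds BSA together with Wnt3a or with both proteins. The spread within the Rspo2 and Wnt3a groups also holds differences between slides, whereas that within BSA and within both proteins does not. Of 6 epithelial marker genes, Krt14 and Krt8 were well above background on 12 arrays and Krt5 on 10, but Krt18 was so on 3, Epcam on 2 and Cdh1 on 0. Of 6 mesenchymal markers Vim, Col1a1, Col1a2, Cdh2 and Pdgfrb were so on 12 arrays and Thy1 on 0, and of 4 contractile and myoepithelial markers Acta2 and Trp63 were so on 12, Cnn1 on 4 and Myh11 on 2. The markers thus bear out the label of an epithelial line only in part. Of other cell types, the immune markers Cd68, Cd3e, Ptprc and Adgre1 were well above background on 12, 11, 1 and 1 arrays, the endothelial markers Cdh5, Pecam1 and Kdr on 12, 1 and 0, and the adipocyte markers Adipoq and Plin1 on 4 and 0. In bulk RNA, fewer cells of a type and less RNA per cell cannot be told apart.

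The Frizzled mRNAs divided into genes read on every array and genes read on almost none. Fzd1, Fzd2 (both probes), Fzd4, Fzd5 (probe 1), Fzd6, Fzd7 (both probes) and Fzd8 (probe 1) were well above background on 12 of 12 arrays, and none of these spots was saturated. Fzd3 (both probes), Fzd9, Fzd10 (probe 2) and Fzd8 (probe 2) were well above background on 0 of 12 arrays, while Fzd10 (probe 1) and Fzd5 (probe 2) were so on 1 array each. Of the 84 values of these 7 probes, 78 lay under 15 scanner units, with a median of 5.74, and in 69 the scanner software had put a surrogate value in place of a signal it could not tell from background. No change is given for those 7 probes.

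**Figure D1:**
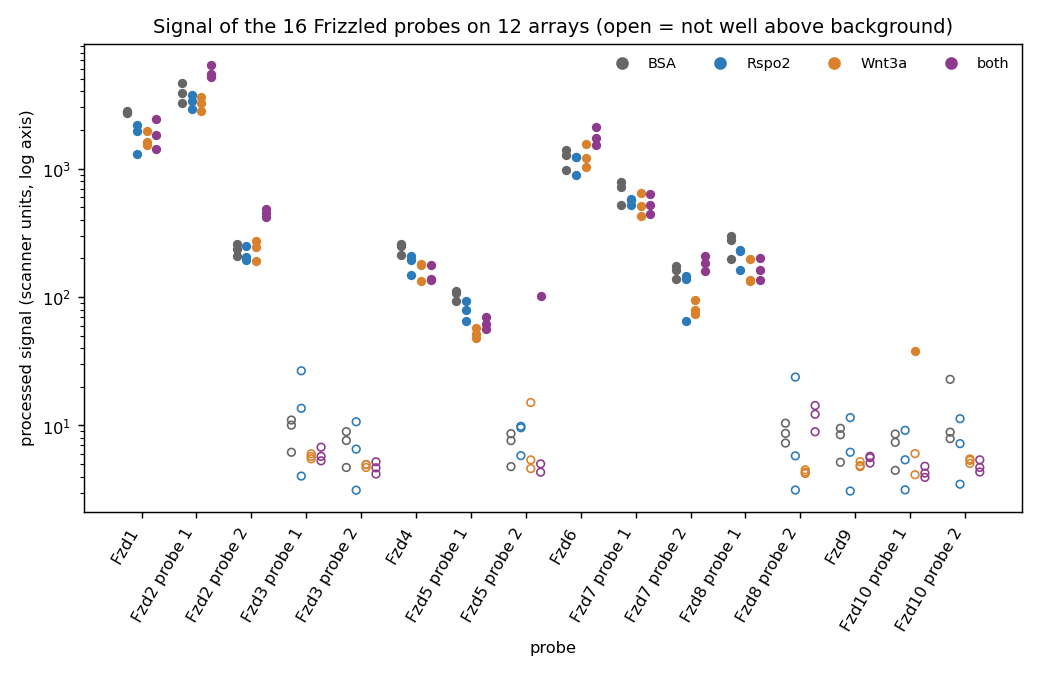
Processed signal in scanner units (log axis) of each of the 16 Frizzled probes on the 12 arrays, colored by group; filled points are well above background and open points are not. The 9 tested probes have 12 filled points each and the other 7 probes have 2 filled points in all; levels of different probes cannot be compared with each other.

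The pairs of probes of Fzd5 and Fzd8 differed in this respect. Fzd5 probe 1 had 47.9 to 111 scanner units and was well above background on all arrays, whereas Fzd5 probe 2 was well above background only on replicate 1 of both proteins, at 102 units. The files list the start and end of Fzd5 probe 2 in the opposite order to those of probe 1, and only probe 1 has an accession that RefSeq assigns to Fzd5. Fzd8 probe 2 likewise has no accession assigned to Fzd8 and was well above background on 0 of 12 arrays, although the scanner software marked its signal as positive and significant on 5, among them the 3 arrays with both proteins at 8.93 to 14.3 units. By the same looser mark Fzd5 probe 2 had a signal on 4 arrays. Of the tested probes, Fzd2 probe 2 also lacks an accession that RefSeq assigns to its gene. The results for Fzd5 and Fzd8 therefore rest on 1 probe each.

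Most of the Frizzled probes differed between both proteins and BSA, in both directions, whereas none passed the test between Rspo2 alone and BSA. No slide holds both proteins together with BSA, and with slide in the fit 0 of the 9 probes passed in any comparison with BSA. A change passed when its limma p-value, adjusted by the Benjamini-Hochberg method over all 22751 detected probes of the array, was under 0.05. Against BSA, 0 of the 9 Frizzled probes passed with Rspo2, where 16.8% of all detected probes did; at an unadjusted p under 0.05 there was 1, Fzd1. With Wnt3a 2 of 9 passed, Fzd5 probe 1 lower and Fzd6 higher, against 31.5% of all probes; scaling to the median of each array gave 2 higher and 0 lower there, and scaling to the 75th percentile of the probes well above background on all arrays gave 0 higher and 3 lower. With both proteins 7 of 9 passed, against 39.2% of all probes. Of these 7, 3 were higher (Fzd2 probes 1 and 2 and Fzd6, against 21.9% of all probes) and 4 lower (Fzd1, Fzd4, Fzd5 probe 1 and Fzd8 probe 1, against 17.3%), where median scaling gave 3 higher and 1 lower and normexp background correction 2 higher and 0 lower. Of the 7, only Fzd2 probe 2 changed by at least 2-fold, a size that 5.08% of all detected probes reached and passed. The median change over the 9 probes was −0.06 with Rspo2, −0.21 with Wnt3a and −0.23 with both on the log2 scale, and over all detected probes it was 0.01, −0.0003 and 0.04. These 3 comparisons share the BSA arrays.

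The groups did not overlap for 8 of the 9 probes between both proteins and BSA, where 54% of all detected probes did not overlap. The numbers were 4 of 9 with Wnt3a, against 45.5% of all probes, and 2 of 9 with Rspo2, against 43.5%. Levels below are log2 signals relative to the 75th percentile of the same array, so that 0 is that percentile, and changes are differences of group means on this scale with the standard error (SE) of the fit.

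**Figure D2:**
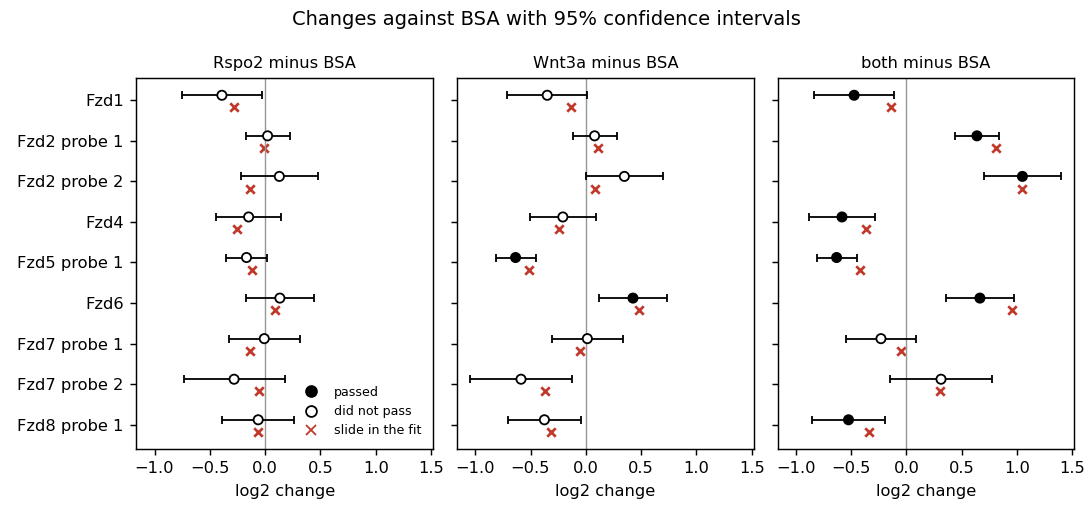
Change of the 9 tested Frizzled probes against BSA (x axis, log2) with Rspo2, Wnt3a and both proteins; points are the fitted changes of 3 arrays against 3, bars are 95% confidence intervals, filled points passed the test, and crosses are the changes with slide in the fit. With both proteins Fzd2 and Fzd6 lie to the right of 0 and Fzd1, Fzd4, Fzd5 probe 1 and Fzd8 probe 1 to the left, and no cross has a passed test.

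Among the close relatives Fzd1, Fzd2 and Fzd7, Fzd2 was higher and Fzd1 lower with both proteins than in BSA. The 2 probes of Fzd7 did not move together. Fzd2 is a receptor used both for β-catenin signaling and for the signals of Wnt5a-type ligands. Probe 1 of Fzd2 read 1.78, 2.02 and 1.83 in BSA, 1.87, 1.94 and 1.89 in Rspo2, 1.99, 2.06 and 1.81 in Wnt3a, and 2.45, 2.50 and 2.59 with both. The 3 arrays with both proteins stood above the other 9, which overlapped each other. The change against BSA was 0.64 with both (SE 0.09, adjusted p = 0.00042), 0.02 with Rspo2 (adjusted p = 0.885) and 0.08 with Wnt3a (adjusted p = 0.536). Against Wnt3a alone, both proteins gave 0.56 (adjusted p = 0.00565).

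Probe 2 of Fzd2, which lies 1432 bases from probe 1 on chromosome 11, read −2.19, −2.16 and −2.18 in BSA, −2.31, −2.17 and −1.66 in Rspo2, −1.73, −1.66 and −2.09 in Wnt3a, and −1.07, −1.19 and −1.12 with both. The arrays with both proteins were again above all others, and 1 Rspo2 and 2 Wnt3a arrays lay between them and the rest. Its change with both proteins was 1.05 (SE 0.16, adjusted p = 0.000594), which is 2.07-fold, and it was 0.70 against Wnt3a alone (adjusted p = 0.0317). With Wnt3a alone it was 0.35 (SE 0.16, adjusted p = 0.116) and with Rspo2 alone 0.13 (adjusted p = 0.596). The rise of probe 2 over Wnt3a did not pass in 8 of the 12 fits that each left out 1 array: without BSA replicate 2 or 3, any of the Wnt3a arrays or any array with both proteins its value was 0.57 to 0.78, with an adjusted p of 0.052 to 0.0921.

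**Figure D3:**
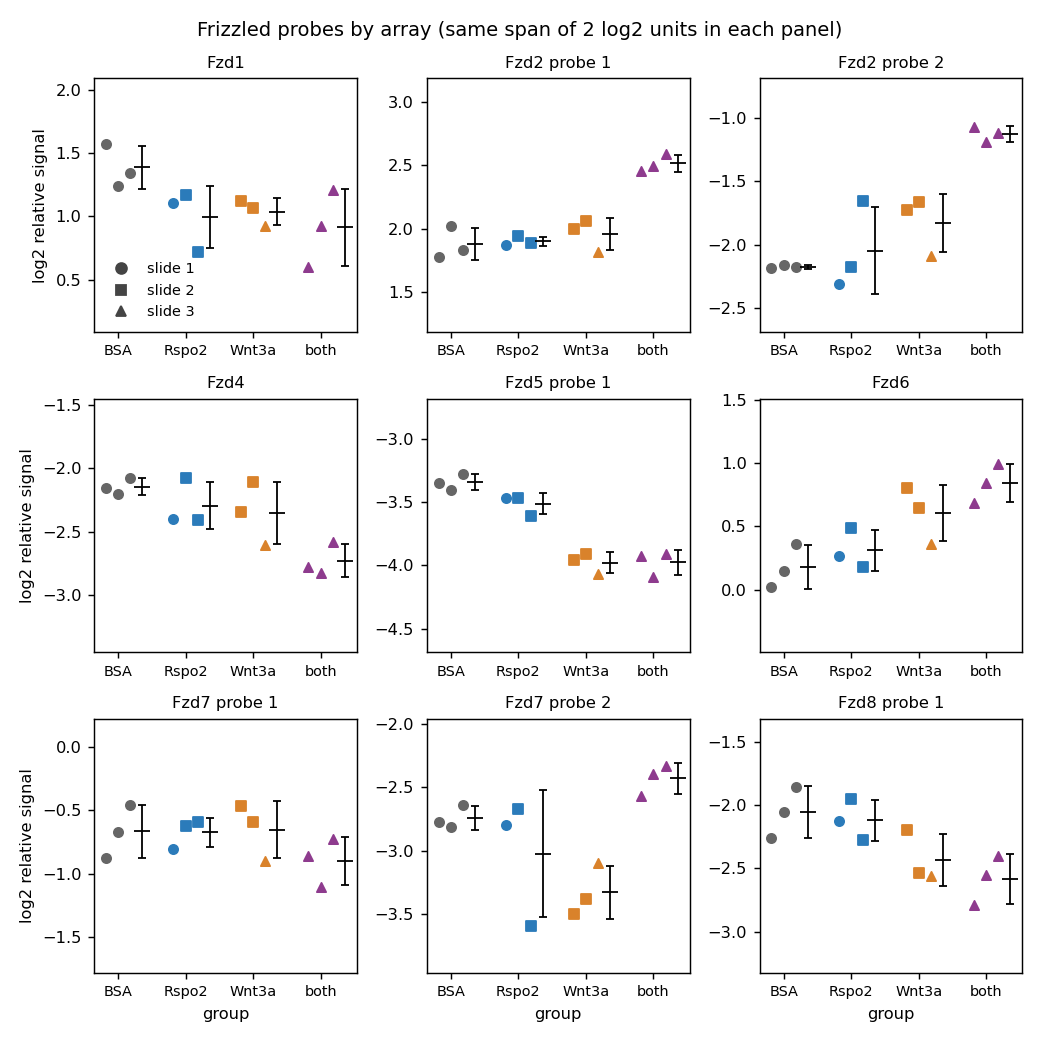
Log2 relative signal (y axis) of the 9 tested Frizzled probes in each of the 12 arrays by group; the marker shape gives the slide, and the bars are the mean ± SD of 3 arrays. The arrays with both proteins lie above all others for both Fzd2 probes, and the Wnt3a arrays and those with both proteins lie below all others for Fzd5 probe 1.

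Fzd1, a receptor for canonical Wnts, read 1.57, 1.24 and 1.35 in BSA, 1.10, 1.17 and 0.72 in Rspo2, 1.12, 1.07 and 0.92 in Wnt3a, and 0.60, 0.93 and 1.21 with both. All 9 treated arrays lay below the 3 BSA arrays, and the treated groups overlapped each other. The change was −0.39 with Rspo2 (SE 0.16, adjusted p = 0.118), −0.35 with Wnt3a (adjusted p = 0.13) and −0.47 for the combination (adjusted p = 0.0413), so that only the last passed. That call was lost in 7 of the 12 fits with 1 array left out: without BSA replicate 1 or 3, Rspo2 replicate 1, Wnt3a replicate 1 or 2, or replicate 1 or 2 of both proteins the change was −0.49 to −0.32, with an adjusted p of 0.0506 to 0.158. With slide in the fit the change for the combination was −0.14 (SE 0.40).

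Fzd7, a receptor known from stem and progenitor cells, gave different answers on its 2 probes, which lie 1825 bases apart on chromosome 1. Probe 1 read −0.87, −0.67 and −0.46 in BSA, −0.81, −0.63 and −0.60 in Rspo2, −0.47, −0.59 and −0.90 in Wnt3a, and −0.86, −1.10 and −0.73 with both. Probe 2 read −2.77, −2.81 and −2.64 in BSA, −2.80, −2.67 and −3.60 in Rspo2, −3.50, −3.38 and −3.10 in Wnt3a, and −2.56, −2.39 and −2.33 with both. On probe 1 all groups overlapped, whereas on probe 2 the Wnt3a arrays lay below BSA, the arrays with both proteins lay above BSA, and Rspo2 replicate 3 stood apart, below the other Rspo2 arrays.

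For probe 1 the change was −0.01 with Rspo2 (SE 0.15, adjusted p = 0.974), 0.01 with Wnt3a (adjusted p = 0.954) and −0.23 for the combination (adjusted p = 0.235). For probe 2 it was −0.28 with Rspo2 (SE 0.21, adjusted p = 0.361), −0.59 with Wnt3a (adjusted p = 0.0522) and 0.31 for the combination (adjusted p = 0.261), none of which passed. Between both proteins and Wnt3a alone, probe 2 rose by 0.90 (adjusted p = 0.0346), while probe 1 gave −0.24 (adjusted p = 0.404). The rise did not pass in 8 of the 12 fits with 1 array left out: without any of the BSA arrays, Wnt3a replicate 1 or 2, or any array with both proteins it was 0.81 to 0.97, with an adjusted p of 0.051 to 0.128.

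**Figure D4:**
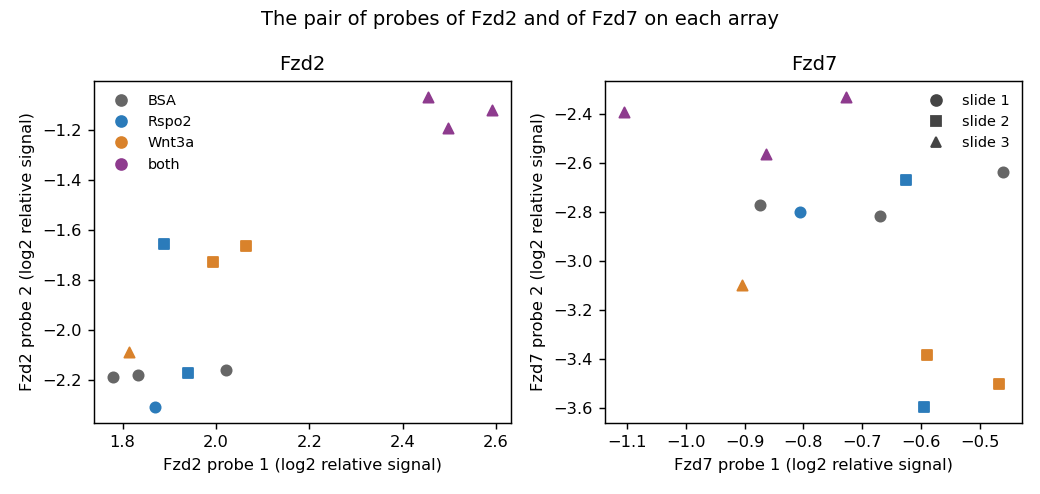
Log2 relative signal of probe 2 (y axis) against probe 1 (x axis) of Fzd2 and of Fzd7 on each of the 12 arrays; colors give the group and marker shapes the slide. For Fzd2 the 3 arrays with both proteins are highest on both probes, while for Fzd7 the probes do not rise together.

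Over the 12 arrays the 2 probes of Fzd2 correlated at r = 0.904 and those of Fzd7 at r = −0.497. After the group means were taken out, the values were 0.359 and −0.277. These are descriptions of 12 arrays that share slides and scaling.

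Fzd5 and Fzd8, the other pair of close relatives, were both lower with both proteins. Fzd5, a receptor for canonical Wnts, was the only Frizzled that passed lower with Wnt3a alone. Its probe 1 read −3.35, −3.41 and −3.28 in BSA, −3.46, −3.47 and −3.61 in Rspo2, −3.96, −3.91 and −4.07 in Wnt3a, and −3.92, −4.09 and −3.91 with both. The 6 arrays that received Wnt3a all lay below the 6 that did not, and the Rspo2 arrays lay just below BSA without overlap.

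The Fzd5 change was −0.64 with Wnt3a (SE 0.08, adjusted p = 0.000698) and −0.63 with both (adjusted p = 0.000238), while with Rspo2 it was −0.17 (adjusted p = 0.17). The calls with Wnt3a and with both were lost under normexp background correction, and the call with Wnt3a also under median scaling. With slide in the fit they were lost as well, at −0.52 and −0.42 (adjusted p = 0.183 and 0.334). Between both proteins and Wnt3a alone the difference was 0.0035 with a 95% confidence interval of −0.18 to 0.18 (adjusted p = 0.989). Wnt3a against Rspo2 gave −0.47 (adjusted p = 0.0212), the only 1 of 9 Frizzled probes to pass in that comparison, where 1.47% of all detected probes did. That last call was lost without Rspo2 replicate 1 or 2 or Wnt3a replicate 1 (−0.48 to −0.44, adjusted p 0.0678 to 0.0833). In all it was lost in 15 of 29 alternatives, among them normexp background correction, median scaling, quantile normalization, the deposited normalized values and limma with trend. The signal of this probe was 47.9 to 111 scanner units, and the dimmest signal well above background was 15.4 to 43.8 units on the same arrays.

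Fzd8 probe 1 read −2.27, −2.05 and −1.86 in BSA, −2.13, −1.96 and −2.28 in Rspo2, −2.20, −2.54 and −2.56 in Wnt3a, and −2.79, −2.55 and −2.40 with both. The arrays with both proteins lay below BSA, whereas 1 Wnt3a array lay within the BSA range. The change was −0.52 with both (SE 0.15, adjusted p = 0.0168), −0.37 with Wnt3a (adjusted p = 0.0766) and −0.06 for Rspo2 (adjusted p = 0.793). Without BSA replicate 3 or without replicate 1 of both proteins the value with both was −0.42, with an adjusted p of 0.0686 to 0.069. The call with both was lost in 9 of 29 alternatives, among them normexp background correction, quantile normalization, median scaling and slide in the fit (−0.34, adjusted p = 0.721).

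Fzd4, a receptor for Wnts and for the non-Wnt ligand norrin, was the only tested member of its group, since Fzd9 and Fzd10 could not be tested. It read −2.15, −2.20 and −2.07 in BSA, −2.40, −2.08 and −2.41 in Rspo2, −2.35, −2.11 and −2.60 in Wnt3a, and −2.77, −2.83 and −2.58 with both. The arrays with both proteins were below all BSA and Rspo2 arrays, and Wnt3a replicate 3 lay among them. Fzd4 was lower with both proteins than in BSA by 0.58 on the log2 scale (SE 0.13, adjusted p = 0.00618). That call was lost under normexp background correction, under median scaling and with slide in the fit (−0.36, adjusted p = 0.578). Fzd4 gave −0.15 with Rspo2 (adjusted p = 0.458) and −0.21 with Wnt3a (adjusted p = 0.264).

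The DNA before the start of Fzd1, Fzd4 and Fzd5, which all passed lower with both proteins, is shown to compare what these genes have upstream. The 250 bases before each start are from RefSeq (GRCm38.p6), 5′ to 3′ on the strand of the gene, and capitals mark CAAAG or its reverse complement CTTTG, the core of the sites that TCF/LEF factors, the partners of β-catenin, are known to bind.
Fzd1, chr5:4758217-4758466, minus strand: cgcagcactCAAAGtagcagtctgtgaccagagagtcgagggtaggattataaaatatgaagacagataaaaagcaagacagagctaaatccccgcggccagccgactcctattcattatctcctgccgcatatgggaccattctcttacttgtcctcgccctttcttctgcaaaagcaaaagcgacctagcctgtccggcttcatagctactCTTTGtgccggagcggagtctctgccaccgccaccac
Fzd4, chr7:89404116-89404365, plus strand: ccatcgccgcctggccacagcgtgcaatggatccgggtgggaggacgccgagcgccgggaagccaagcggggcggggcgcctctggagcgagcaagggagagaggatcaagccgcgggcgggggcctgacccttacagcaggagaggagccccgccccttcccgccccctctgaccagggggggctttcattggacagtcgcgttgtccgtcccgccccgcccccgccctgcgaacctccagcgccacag
Fzd5, chr1:64737751-64738000, minus strand: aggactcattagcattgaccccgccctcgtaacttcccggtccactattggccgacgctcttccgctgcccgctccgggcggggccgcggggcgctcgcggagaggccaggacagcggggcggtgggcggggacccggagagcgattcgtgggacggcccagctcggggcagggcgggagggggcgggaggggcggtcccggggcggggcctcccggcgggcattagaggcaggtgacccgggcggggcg
Fzd1 holds the core at 2 places and Fzd4 and Fzd5 at 0. Of the other Frizzled promoters at hand, those of Fzd7 and Fzd10 hold the core at 1 place each and that of Fzd9 at 0. No promoter was at hand for Fzd8, which also passed lower, or for Fzd2 and Fzd6, which passed higher. Over the 27025 promoters of the same table and length, 48.8% hold the core on either strand. The longer word ATCAAAG, which contains the core, is in 0 of the 6 Frizzled promoters of the table (Fzd1, Fzd4, Fzd5, Fzd7, Fzd9 and Fzd10) and in 3.23% of all. G and C made up 51.2% of the Fzd1 sequence, 72.8% of Fzd4 and 76.4% of Fzd5, against a median of 52% over all promoters. The counts of CG were 12, 25 and 32, against a median of 6.

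Fzd6, which is known for orienting hair follicles and for restraining the β-catenin pathway in some cells, was higher with Wnt3a and with both proteins than in BSA. It read 0.02, 0.14 and 0.36 in BSA, 0.27, 0.49 and 0.18 in Rspo2, 0.80, 0.65 and 0.36 in Wnt3a, and 0.69, 0.84 and 0.99 with both. The arrays with both proteins were all above BSA, whereas the lowest Wnt3a array was level with the highest BSA array. The change was 0.66 with both (SE 0.14, adjusted p = 0.00366), 0.43 with Wnt3a (adjusted p = 0.0379) and 0.13 for Rspo2 (adjusted p = 0.524). The call with Wnt3a was lost without BSA replicate 1 or 2, Rspo2 replicate 1, Wnt3a replicate 1 or 2, or replicate 2 of both proteins, where the change was 0.33 to 0.43 and the adjusted p 0.0506 to 0.124. Its relative Fzd3 could not be tested.

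Whether both proteins together gave more than the sum of their single changes was tested as an interaction, that is, the change with both less the change with Rspo2 and less the change with Wnt3a. It passed for 2 of the 9 Frizzled probes, against 8.9% of all detected probes, and both were positive, as were 3.58% of all. For Fzd2 probe 1 the single changes summed to 0.10 and the change with both was 0.64, which left 0.54 (SE 0.13, adjusted p = 0.0318). Fzd2 probe 2 gave a similar 0.57 (95% confidence interval 0.08 to 1.06) but did not pass (adjusted p = 0.122).

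For Fzd7 probe 2 the single changes summed to −0.87 and the change with both was 0.31, so the interaction was 1.18 (SE 0.29, adjusted p = 0.0362), while Fzd7 probe 1 gave −0.24 (adjusted p = 0.469). For Fzd1, Fzd4, Fzd5 probe 1, Fzd6 and Fzd8 probe 1 the interaction ran from −0.23 to 0.27 with adjusted p of 0.347 to 0.812. Without BSA replicate 2 or 3, Rspo2 replicate 2 or 3, or replicate 2 or 3 of both proteins the Fzd2 probe 1 interaction was 0.46 to 0.56 with an adjusted p of 0.0617 to 0.0795. Without any BSA array, Wnt3a replicate 1 or 2, or replicate 2 or 3 of both proteins that of Fzd7 probe 2 was 1.09 to 1.22, with an adjusted p of 0.0625 to 0.088.

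**Figure D5:**
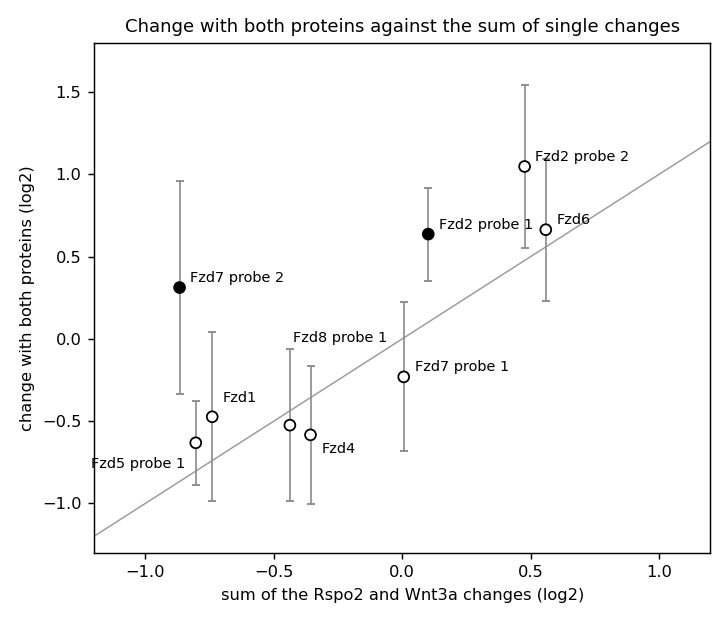
Change with both proteins (y axis, log2, against BSA) against the sum of the changes with Rspo2 and with Wnt3a alone (x axis) for the 9 tested Frizzled probes; the line marks equality, the bars are 95% confidence intervals of the interaction, and filled points passed its test. Fzd2 probe 1 and Fzd7 probe 2 lie above the line by 0.54 and 1.18.

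Both proteins against Wnt3a alone gave 3 passing Frizzled probes of 9, all higher (Fzd2 probes 1 and 2 and Fzd7 probe 2), where 4.27% of all detected probes passed and 1.78% passed higher. The same 3 probes were those whose groups did not overlap, against 21.4% of all probes. No Frizzled probe passed lower in this comparison.

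Slide and treatment were only partly separable in these arrays. With slide as a term of the fit, 0 of the 9 Frizzled probes passed in any comparison with BSA, and 2.51% of all detected probes did so with both proteins. Each of the 7 probes that had passed kept its sign: the changes with both proteins became 0.81 and 1.05 for the probes of Fzd2 (adjusted p = 0.0769 and 0.106), 0.96 for Fzd6, −0.14 for Fzd1, −0.36 for Fzd4, −0.42 for Fzd5 probe 1 and −0.34 for Fzd8 probe 1. The Fzd1 value became smaller than its SE of 0.40, while those of Fzd2 probe 1 (SE 0.20) and Fzd6 (SE 0.30) grew. Between both proteins and Wnt3a, which meet on slide 3, Fzd2 probe 1 kept its rise at 0.70 (adjusted p = 0.027) and probe 2 at 0.96 (adjusted p = 0.0326), and Fzd7 probe 2 gave 0.67 (adjusted p = 0.446). The differences between the 3 arrays with both proteins and the Wnt3a array on slide 3 are these same values, so they rest on 1 Wnt3a array. That array, Wnt3a replicate 3, was the lowest Wnt3a array on both Fzd2 probes and the highest on Fzd7 probe 2. On slide 1, Rspo2 replicate 1 differed from the 3 BSA arrays by −0.28 for Fzd1, and on slide 2 Wnt3a differed from Rspo2 by −0.40 for Fzd5 probe 1 (adjusted p = 0.135).

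Some cell type markers moved with the same groups. With both proteins Krt14 rose by 1.24 on the log2 scale and Acta2 by 0.78, while Krt8 fell by 1.15, Pdgfrb by 0.60, Cdh5 by 0.55 and Trp63 by 0.40. The other 7 of the 13 detected markers did not pass in this comparison. The share of markers that passed was thus near that of all detected probes, 39.2%. The summed relative level (linear) of the 6 epithelial markers was 10.1 to 10.6 in BSA and 22.5 to 25.8 with both. That sum is almost only Krt14, at 8332 to 24090 scanner units, where the next brightest, Krt8, had at most 97.67. The sum of the 4 contractile and myoepithelial markers was 121 to 129 and 197 to 232. It is almost only Acta2, at 120500 to 217200 units, where Trp63 had 845 to 1446. These 2 sums therefore describe 1 gene each. That of the 6 mesenchymal markers was 229 to 251 in BSA and 241 to 243 with both. The part of such shifts in the Frizzled values was not tested.

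The genes whose arrays followed the Frizzled with the largest rise and the largest fall most closely were listed by Pearson correlation over the 12 arrays among 18701 named probes. Slc35a5 (r = 0.964), Rnf141 (0.956) and Metap2 (0.955) were closest to Fzd2 probe 2, for which 91 probes exceeded 0.9. A130054J05Rik (0.962), Kcna4 (0.96) and Pag1 (0.949) were closest to Fzd5 probe 1, for which 104 probes did. Within groups the first 3 correlations were 0.716 to 0.789 and the other 3 were 0.332 to 0.486. All these arrays share slides and scaling.

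Of 52 genes listed as partners of Frizzleds, 28 were well above background on all 12 arrays. With both proteins 15 of these passed, 5 higher and 10 lower, against 39.2% of all detected probes, with a median change of −0.22. With Rspo2 5 of the 28 passed, against 16.8% of all probes, and with Wnt3a 7, against 31.5%. These shares include probes that were dim on some arrays, unlike the 28 genes. The 20436 probes that met the same limit as the 28 genes were also tested by themselves. Of these, 20.2% passed with Rspo2, 33.9% with Wnt3a and 42.2% with both proteins. With slide in the fit only Lgr6 of the 15 still passed with both proteins (−1.50, adjusted p = 0.0244). Among the co-receptors and alternative Wnt receptors, 1 of 5 such genes passed higher (Ryk, 0.33, adjusted p = 0.0182). Also, 1 passed lower, Lrp5, the co-receptor of Frizzled in the β-catenin pathway (−1.29, SE 0.31, adjusted p = 0.00786). The share that passed was near that of all probes. With slide in the fit the values were 0.53 for Ryk and −0.48 for Lrp5 (adjusted p = 0.297 and 0.801). Lrp6, the paralog of Lrp5, gave −0.42 (adjusted p = 0.0652).

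Among 4 genes of Frizzled turnover and R-spondin reception, Znrf3 and Rnf43, whose products remove Frizzleds, rose by 1.22 (SE 0.20, adjusted p = 0.000854) and 0.69 (adjusted p = 0.0181) with both proteins. With slide in the fit these values were 1.47 and 1.55, and neither passed (adjusted p = 0.169 and 0.054). Lgr6, an R-spondin receptor, rose with Rspo2 (0.49, adjusted p = 0.0212), fell with Wnt3a (−0.39, adjusted p = 0.0206) and fell with both (−1.33, SE 0.11, adjusted p = 1e-05), with an interaction of −1.43 (adjusted p = 0.000821). Lgr4 gave −0.17 with both (adjusted p = 0.197), and Lgr5 was not detected.

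Of 15 secreted Frizzled-related proteins and other extracellular modulators only 3 were above background on all arrays, and Reck and Adgra2, which together present Wnt7 ligands to Frizzled, were lower with both proteins (−0.44 and −0.37; with slide in the fit −0.04 and −0.62, adjusted p = 0.963 and 0.357). Of 8 cytoplasmic partners 2 passed higher and 1 lower, a share near that of all probes, and Dvl1, Dvl2 and Dvl3, the Dishevelled proteins that bind Frizzleds directly, gave −0.09, −0.30 and −0.09 (adjusted p of 0.114 to 0.741). Axin2, a target and inhibitor of the β-catenin pathway, is not among these 8: it was well above background only on the 3 arrays with both proteins, at least 9.39-fold over BSA, and entered the fit only through that group.

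Of 6 planar polarity partners 4 passed lower and 0 higher with both proteins, against 17.3% and 21.9% of all detected probes: Celsr1, an atypical cadherin (−1.37, SE 0.19, adjusted p = 0.000333), Vangl2 (−0.71), Daam1 (−0.51) and Vangl1 (−0.49). With slide in the fit none of them passed, and the values were −1.46, −0.34, −0.46 and −0.20 (adjusted p of 0.179 to 0.795). Of the other proteins with a Frizzled domain, Col18a1 gave −0.87 (with slide −0.33, adjusted p = 0.738) and Smo −0.16 (adjusted p = 0.336). The medians are descriptions and no test of a list.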

How the data were processed

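RNA of 12 C57MG monolayers was hybridized in 1 color to Agilent 4×44K mouse arrays. Per the file headers the deposited intensity values were made with Agilent Feature Extraction 9.5.3.1, which subtracted background, detrended the array and put a surrogate in place of dim signals; they were not scaled between arrays. A second deposited table holds ratio values that the authors made by dividing by the 75th percentile of each array, and it was used as an alternative.

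Here spots marked as uneven or as outliers were left out (1327 of 520548 values), spots of a probe were averaged, and log2 values were taken relative to the 75th percentile of each array. Tested probes were those that stood well above background in every replicate of some group. Probes kept the gene names of the files, and 22951 were also named by accession through RefSeq. The fits used limma (version 3.58.1; R version 4.3.3) over all 4 groups, after a check on simulated data. Exact permutation of 3 against 3 arrays cannot give a p under 0.1 and was not used. Signal over background and 3 arrays a group limit the precision. The 29 alternatives are other background corrections, scalings, filters, tests and terms and the leaving out of arrays, 1 of them chosen after seeing the data.

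Named were all Frizzled probes; genes of the partner lists whose brightest detected probe passed at 2-fold or more, with a few others of each list; the cell type markers; and the 3 genes most correlated with the largest riser and faller. The Frizzled members and the lists were chosen with earlier results of these data known.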

Additional observations from a re-analysis of the deposited data

Results flagged for a closer look

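The effect of Rspo2 on Fzd2 probe 1 differed between cells with and without Wnt3a by 0.54 on the log2 scale (interaction, SE 0.13, limma adjusted p = 0.0318): 0.02 without Wnt3a and 0.56 with it. For Fzd7 probe 2 this difference was 1.18 (SE 0.29, adjusted p = 0.0362), from −0.28 without Wnt3a to 0.90 with it. The −0.28 rests on Rspo2 replicate 3: without that array it was 0.0061 and the interaction was 0.89, which still passed. The call was lost in 15 of 27 alternatives for Fzd7 probe 2 and in 13 of 27 for Fzd2 probe 1. Fzd2 probe 2 gave a difference of the same sign, 0.57 (adjusted p = 0.122), and Fzd7 probe 1 one of the opposite sign, −0.24 (adjusted p = 0.469). With slide in the fit the values were 0.71 for Fzd2 probe 1 (adjusted p = 0.112) and 0.73 for Fzd7 probe 2 (adjusted p = 0.367). Over all alternatives that give an interaction, neither value changed sign, but many of these alternatives change only the filter or test and not the value.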

How the results depend on the processing

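No change of a Frizzled probe that passed reversed its sign under any alternative. Many alternatives could not reverse it. A different filter, test, limit or replicate block leaves the value as it was. So does leaving out an array of a group outside the comparison. Only the other settings, such as scaling, background correction and slide, could move the sign. With Rspo2 0 Frizzled probes passed under all of them, where 0.00879% to 24.2% of all tested probes did. The numbers of the 9 probes that passed, in the order Wnt3a, both proteins (each against BSA), both against Wnt3a, Wnt3a against Rspo2, and interaction, were 2, 7, 3, 1 and 2. Parentheses below give the share of all tested probes that passed, in % and in the same order, which here was 31.5, 39.2, 4.27, 1.47 and 8.9. With normexp background correction the numbers were 0, 2, 0, 0 and 0 (0.488, 4.85, 0.171, 0 and 0.0132). With median scaling they were 2, 4, 0, 0 and 0 (46.4, 43.7, 2.94, 0.396 and 17.1). With slide as a term they were 0, 0, 2, 0 and 0 (0.796, 2.51, 1.38, 0.655 and 0.743). Median scaling moved the median change of all detected probes to 0.33 with Wnt3a, 0.26 with both and 0.18 with Rspo2. Quantile normalization gave 2, 6, 3, 0 and 1 (24, 36.5, 4.73, 1.2 and 6.46), and the deposited normalized values 2, 7, 2, 0 and 2 (31, 38.8, 4.23, 1.39 and 8.42). Without a filter on dim probes there were 1, 5, 1, 0 and 0 (11.1, 16.6, 1.03, 0.165 and 0.726). The flag for a positive and significant signal gave 1, 6, 1, 1 and 1 (24.5, 30.7, 2.73, 0.716 and 4.44). Fitting only the groups compared gave 2, 7, 2, 0 and 2 (25.4, 39.8, 2.16, 0.255 and 8.9). Limma with trend gave 3, 7, 3, 0 and 2 (32.8, 40.7, 4.43, 1.45 and 11.3). A limit of 2-fold gave 0, 1, 0, 0 and 1 (2.52, 5.08, 0.747, 0.202 and 1.93). The methods' t-test has no interaction. It gave 1, 4, 0 and 0 with adjusted p-values (6.79, 14.7, 0.0703 and 0.0044) and 3, 7, 3 and 1 without (30.5, 39.5, 10.8 and 8.11). Leaving out each array in turn gave 1 to 4, 5 to 7, 1 to 3, 0 to 1 and 0 to 2. The shares then ran from 21.7 to 31.9, 29 to 41.8, 2.1 to 9.37, 0.64 to 1.82 and 2.93 to 12.6. The largest number with Wnt3a came without Rspo2 replicate 3 and without Wnt3a replicate 3. Without Rspo2 replicate 3 and BSA replicate 1 together, chosen after seeing the data, the numbers were 2, 6, 3, 0 and 0 (24.8, 33.4, 4, 0.712 and 2.18). With the replicate number as a block there were 1, 6, 1, 0 and 0 (25.6, 33.3, 2.75, 0.558 and 3.21). The replicate numbers do not pair the arrays: deviations of same-numbered arrays correlated at −0.413 to 0.271, with 4 of 18 pairs over 0.1 and 9 of 36 pairs of unlike number. The causes of these differences were not tested. Signal over background limits what can be said of Fzd3, Fzd9 and Fzd10.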

Other observations

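Of the Frizzled probes that were not tested, 2 had a single array well above background. Fzd5 probe 2 had 102 scanner units on replicate 1 of both proteins, and 4.33 and 5.02 units on the other arrays of that group. Fzd10 probe 1 had 38.1 units on replicate 1 of Wnt3a, and 4.14 and 6.04 units on the other Wnt3a arrays.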
